A study of Homo sapiens with 6 samples.

Results

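The genes of secreted cytokines and chemokines were examined in WM164, a human melanoma line with the BRAF V600E change. A gene was a member when it was protein-coding and its whole symbol was CCL, CXCL or TNFSF with a number, IL with a number and at most 1 letter from A to F, or TNF, LIF, CSF1, CSF2, CSF3, OSM or CX3CL1, so that receptors stayed out. The rule found 93 members among 60504 genes, of which 19664 were protein-coding. Another 5 protein-coding symbols begin in the same way and carry a longer ending, TNFSF12-TNFSF13, TNFSF13B, CCL4L2, CCL3L1 and CCL15-CCL14, and they stayed out too. All libraries came from WM164 cells, and both groups carried the same BRAF change. The EV group held 3 libraries of cells with an empty expression vector and the HDAC8 group 3 libraries of cells with an expression vector for HDAC8, a class I histone deacetylase. Both kinds of cells were transfected and then kept in hygromycin, and whether they were clones or pools is not given in the sources used here.

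Cytokines are small secreted or membrane-bound proteins through which cells signal to their neighbours. Chemokines bind G protein-coupled receptors and guide migrating leukocytes. Many interleukins and some colony-stimulating factors, though not CSF1, act through receptors coupled to JAK kinases and STAT factors. The TNF superfamily acts through trimeric receptors that recruit TRAF adaptors. Melanoma cells are known to secrete several of them, and many of their genes are switched on by NF-kappaB and AP-1 and have short-lived mRNA.

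The libraries held 34741092 to 42041453 counts, and depth overlapped between the groups. The HDAC8 transcript (ENSG00000147099, chromosome X, 72329516 to 72573101, minus strand) stood at 384, 404 and 479 normalized counts in EV and at 485, 446 and 474 in the libraries labelled HDAC8 (log2 fold change 0.15, SE 0.28, adjusted p = 0.856 by DESeq2). The groups overlapped for that gene and it was not called, so it did not bear out the labels. Each direction below rests on the labels. Melanocytic lineage markers had counts in every library, and 5 of 7 (71.4%) were called lower in the libraries labelled HDAC8. Of all protein-coding genes with an adjusted p, 6.62% were called lower. Among these markers, S100B lost its call in 7 of 14 alternatives (adjusted p up to 0.103). Transcripts of the mitochondrial genome made up 9.66% to 12.8% of an EV library and 4.46% to 7.94% of an HDAC8 library, and their part in the results was not tested beyond a fit without those genes. That fit, added after the data had been seen, called 5 members higher and 1 lower.

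Of the 93 members, 43 had no count in any library and 9 had some counts but under 10 in all. The other 41 were tested, and 23 of these received an adjusted p from DESeq2, which withholds it from the lowest counts. A gene was called when that p was under 0.05 and the log2 fold change was 0.58 or more in either direction. By this measure 5 members were higher in the HDAC8 libraries (IL11, LIF, CSF1, CCL28 and IL32) and 1 was lower (IL10). Called members were thus 26.1% of the 23, where 11.0% of all 21021 genes with an adjusted p were called, 5.57% of them higher and 5.44% lower, and 13.9% of the 14272 protein-coding ones, 7.25% higher and 6.62% lower. Of the 12 members that averaged at least 50 normalized counts, 5 were called, against 14.0% of all genes at that level. A member that passed the filter on low values through 1 group only had to differ, as IL32 did, so these shares only describe the members that passed. The median log2 fold change was 0.32 over the 23 members, 0.14 over the 12, and 0.00 over all genes.

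**Figure D1:**
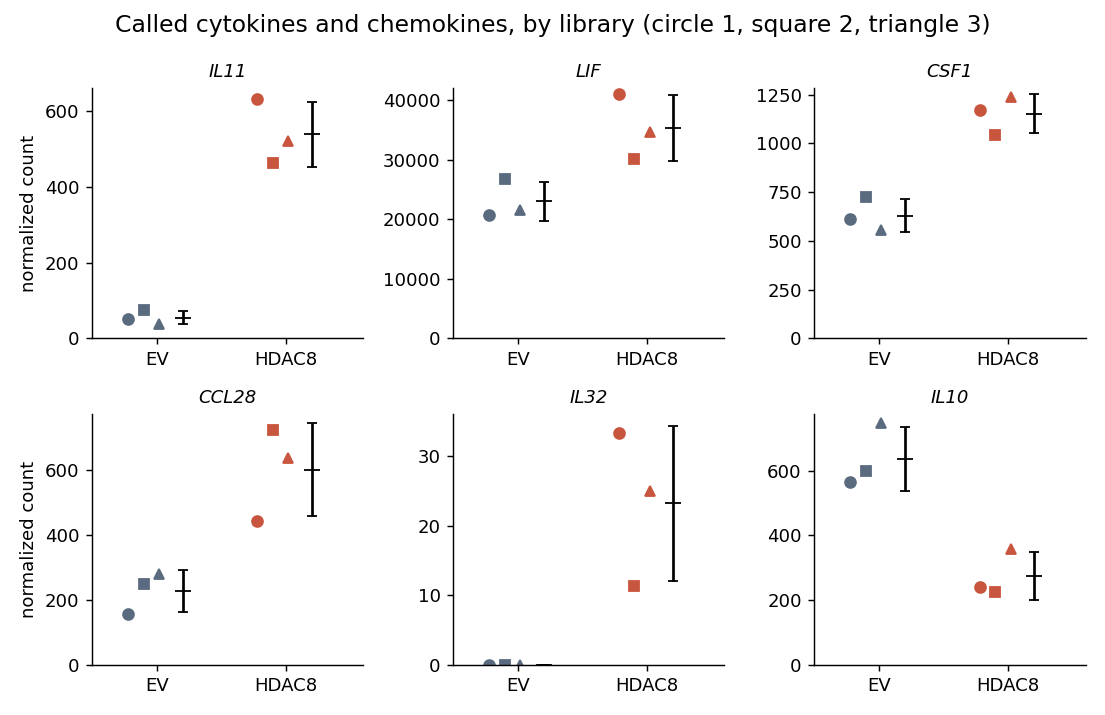
Normalized counts of the 6 called members by library, with EV on the left and HDAC8 on the right of each panel, each panel on its own linear axis from 0, and the mean ± SD of 3 libraries in black. The groups did not overlap in any panel, IL10 was the only one with EV above HDAC8, and IL32 lay at 0 in all EV libraries.

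Most of the normalized counts of the 93 members came from LIF, a member of the gp130 family of cytokines that share the receptor subunit IL6ST. LIF made up 63.8% to 67.5% of the counts of all members in the EV libraries and 71.3% to 74.5% in the HDAC8 libraries. Divided by the length of its exons, LIF stood at 5940.2 ± 859.6 normalized counts per kb in EV and 9112 ± 1423 in HDAC8 (SD, n = 3), at rank 68 of 16291 protein-coding genes with a count. Behind LIF on the same scale, in order of the mean over all 6 libraries, came TNFSF9 (532 in EV and 667 in HDAC8), IL16 (547 and 499), CX3CL1 (281 and 339), CXCL16 (284 and 241) and CSF1 (120.2 and 220.1). In EV alone IL10, at 147, stood ahead of CSF1, while in HDAC8 it stood at 63.2. TNFSF9 and IL16 changed places between the groups too, as did CX3CL1 and CXCL16, and in each of the latter pairs the means in EV differed by less than the larger SD of the 2 genes. Beside LIF, the sum of all other members was 11593 to 12928 normalized counts in EV and 12076 to 14016 in HDAC8, so these sums overlapped.

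**Figure D2:**
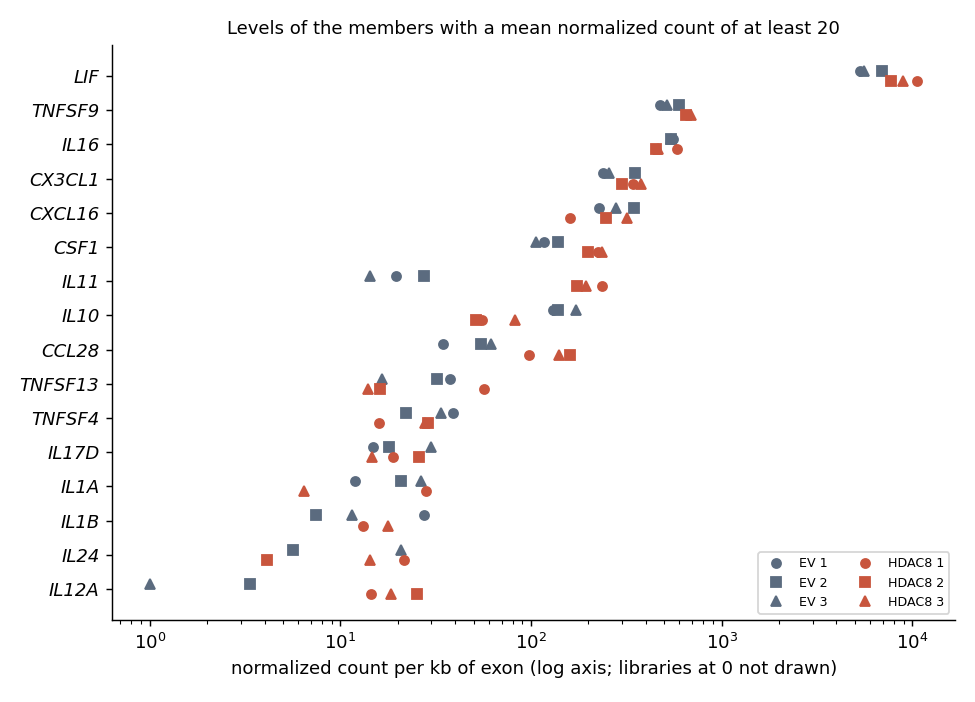
Normalized counts per kb of exon, on a log axis, of the members whose mean normalized count was at least 20. Each library has 1 point (grey EV, red HDAC8), except that libraries without a count are not drawn. LIF lay apart on the right at a mean of 5940.2 in EV and 9112 in HDAC8, and IL11 stood at a mean of 20.5 per kb in EV and 201 in HDAC8.

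In the gp130 family, IL11 and LIF were higher in the HDAC8 libraries, while IL6, the family's best known inflammatory member, had no count. The largest change of an abundant member was in IL11 (ENSG00000095752, chromosome 19, 55364382 to 55370463, minus strand), which acts on stromal, megakaryocytic and epithelial cells through IL11RA. Its normalized counts were 52.4, 73.8 and 38.4 in EV and 633, 464 and 521 in HDAC8. Each HDAC8 library was thus several times above the highest EV library. The means were 54.9 ± 17.8 and 539 ± 85.9 (SD, n = 3), a 9.81-fold difference (95% interval 5.81 to 16.6, log2 fold change 3.29, SE 0.39, adjusted p = 2.19e-15 by DESeq2). IL11 remained called under each of the 14 alternatives.

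The sequence before the start of IL11 is shown because it is the member that changed most among those with a mean of at least 50, beside the promoters of the other called members that the table holds. The sequences are those of RefSeq on GRCh38.p14, the 250 bases that end right before the most upstream listed start, 5′ to 3′ on the strand of the gene. The RefSeq starts of IL10 and IL32 differ from the ends of the GENCODE gene spans given for them, so the IL10 stretch lies inside its GENCODE span and the IL32 stretch runs into it. The stretches lie at chr19:55370464-55370713 (minus, IL11), chr5:43412392-43412641 (minus, CCL28), chr16:3065153-3065402 (plus, IL32) and chr1:206772495-206772744 (minus, IL10). Capitals mark an AP-1 motif (TGANTCA), a cyclic AMP response element or CRE (TGACGTCA) or a TATA motif (TATAAA), which were searched on both strands and share no position here.
IL11: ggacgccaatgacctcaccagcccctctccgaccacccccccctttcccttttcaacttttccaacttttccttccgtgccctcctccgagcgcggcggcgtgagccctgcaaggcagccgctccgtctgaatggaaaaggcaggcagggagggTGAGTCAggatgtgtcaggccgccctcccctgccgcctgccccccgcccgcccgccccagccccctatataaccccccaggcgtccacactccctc
CCL28: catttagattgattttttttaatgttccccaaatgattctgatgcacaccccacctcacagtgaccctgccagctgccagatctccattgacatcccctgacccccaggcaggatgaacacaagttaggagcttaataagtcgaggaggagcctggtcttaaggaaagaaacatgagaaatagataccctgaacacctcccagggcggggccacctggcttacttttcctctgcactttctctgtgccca
IL32: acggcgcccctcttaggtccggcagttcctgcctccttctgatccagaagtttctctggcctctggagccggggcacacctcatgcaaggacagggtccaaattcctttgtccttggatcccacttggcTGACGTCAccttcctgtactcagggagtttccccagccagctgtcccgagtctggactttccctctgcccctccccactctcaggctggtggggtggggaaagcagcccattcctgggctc
IL10: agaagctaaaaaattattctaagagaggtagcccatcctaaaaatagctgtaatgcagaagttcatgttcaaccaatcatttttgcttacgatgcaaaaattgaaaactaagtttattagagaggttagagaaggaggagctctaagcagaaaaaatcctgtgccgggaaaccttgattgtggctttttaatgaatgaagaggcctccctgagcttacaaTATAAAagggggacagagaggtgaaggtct

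IL11 has an AP-1 match, TGAGTCA, at -96 from the start. IL32 has a CRE match at -121, a match to the NF-kappaB motif on each strand at -99 and -98, which overlap, and a match to the TEAD motif (GGAATG) at -13. IL10 has the TATA match at -30. CCL28 has none of the motifs searched, which also included a STAT motif (TTCNNNGAA). Among 27312 promoters of this length in the table, AP-1 letters are in 6.57%, the CRE in 1.75%, the NF-kappaB motif in 9.59%, the TEAD letters in 12.0%, the STAT letters in 6.76% and TATAAA in 11.2%. Of the 66 member promoters found, 14 (21.2%) hold the AP-1 letters, 1 (1.52%, IL32) the CRE, 17 (25.8%) the NF-kappaB motif, 6 (9.09%) the TEAD letters, 11 (16.7%) the STAT letters and 25 (37.9%) TATAAA. AP-1 matches were also present in members that were not called, CXCL8, IL1A and IL19. These matches are a description of letters, and no binding was measured in these libraries.

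LIF (ENSG00000128342, chromosome 22, 30240453 to 30246759, minus strand) keeps mouse embryonic stem cells undifferentiated and acts through LIFR and IL6ST. It had normalized counts of 20691, 26809 and 21484 in EV and 41037, 30066 and 34712 in HDAC8. All HDAC8 libraries were above all EV libraries, though HDAC8 2 stood close to EV 2. The mean rose from 22995 ± 3327 to 35272 ± 5507 (SD, n = 3), by 1.53-fold (95% interval 1.25 to 1.89, log2 fold change 0.62, SE 0.15, adjusted p = 0.00104 by DESeq2). The value lies near the minimum of 0.58, and it was 0.54 without EV 1 (adjusted p = 0.0381), 0.56 without EV 3 (adjusted p = 0.0362) and 0.49 without HDAC8 1 (adjusted p = 6.05e-04), so in these LIF was no longer called. LIF-AS1 and LIF-AS2 lie over LIF on the opposite strand, with mean normalized counts of 26.4 and 171, far under that of LIF.

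The other members grouped with this family were at low levels. OSM, which acts through OSMR, had 16.8, 0 and 14.8 normalized counts in EV and 19.7, 0 and 6.53 in HDAC8, and it was not called (adjusted p = 0.975). IL27 had 4 counts in EV 2 and none elsewhere. IL31, a relative that signals through IL31RA and OSMR, had no count.

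The receptor genes of IL11, LIF, OSM and IL6 were present in each library. IL6ST, the shared signalling subunit, had 8036, 7173 and 8379 normalized counts in EV and 6403, 11643 and 10180 in HDAC8, and LIFR had 2423, 2142 and 2433 against 2018, 3166 and 2857. Both sets of libraries overlapped, and neither gene was called (log2 fold change 0.26 and 0.20, adjusted p = 0.472 and 0.632). IL11RA, the receptor of IL11, had 103, 102 and 96.5 against 213, 7.17 and 66.4, so that the HDAC8 libraries spread to both sides of the EV libraries (log2 fold change -0.07, 95% interval -1.74 to 1.60, adjusted p = 0.983). OSMR was the exception, with 3240, 3672 and 3255 against 4854, 7406 and 6294 and a rise of 1.82-fold (95% interval 1.44 to 2.31, adjusted p = 1.84e-05). IL6R, the receptor of IL6, was not called (log2 fold change 0.41, adjusted p = 0.140). SOCS3, a feedback inhibitor induced by STAT3, had a log2 fold change of -0.24 (95% interval -1.03 to 0.55, adjusted p = 0.832), and STAT3 itself one of -0.04 (95% interval -0.35 to 0.26, adjusted p = 0.934).

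**Figure D3:**
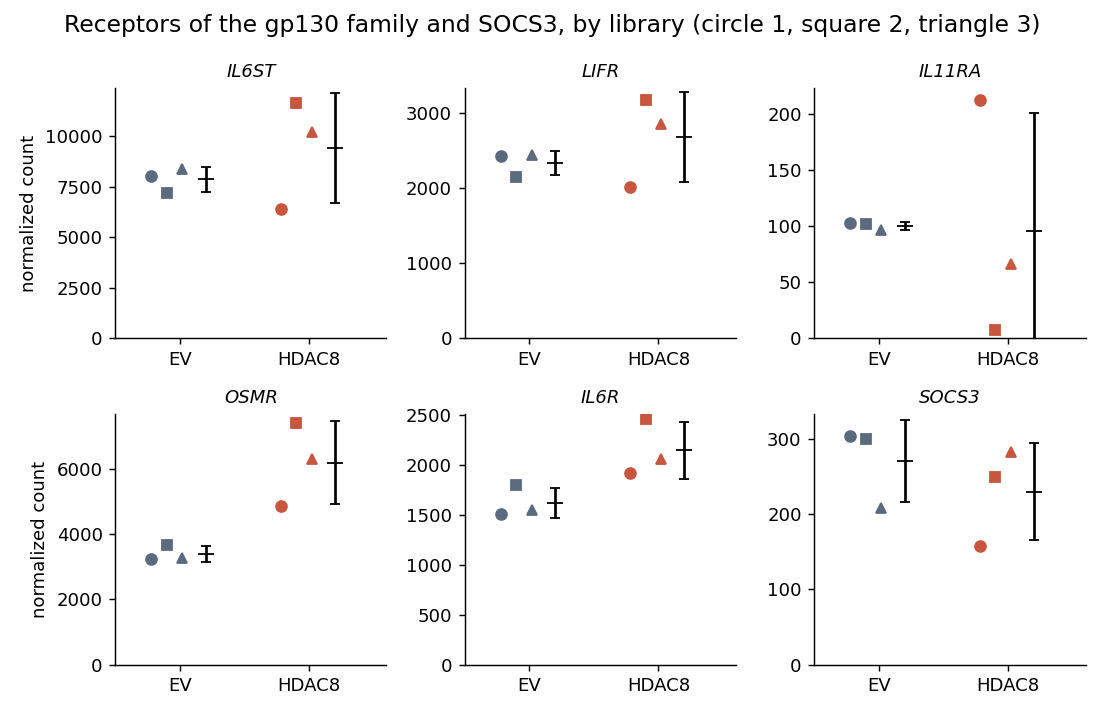
Normalized counts of 5 receptor genes of the gp130 family and of SOCS3 by library, each panel on its own linear axis from 0, with the mean ± SD of 3 libraries in black. Only the OSMR panel shows groups that do not overlap together with a call, and the HDAC8 points of IL11RA run from 7.17 to 213.

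Among the colony-stimulating factors, CSF1 (ENSG00000184371, chromosome 1, 109910242 to 109930992, plus strand), the growth and survival factor of macrophages, was higher in the HDAC8 libraries. It had normalized counts of 610.3, 723 and 556 in EV and 1172, 1046 and 1240.3 in HDAC8. The groups lay well apart, with more than 300 counts between the nearest libraries. The means were 629.6 ± 85.3 and 1153 ± 98.8 (SD, n = 3), a 1.83-fold difference (95% interval 1.35 to 2.49, log2 fold change 0.87, SE 0.23, adjusted p = 0.00187 by DESeq2), and CSF1 remained called under each of the 14 alternatives. CSF1R, its receptor, was low at 39.6 ± 23.8 in EV and 35.6 ± 22.9 in HDAC8 (adjusted p = 0.968). IL34, the other ligand of that receptor, had counts in 2 EV libraries and 1 HDAC8 library and was not called. CSF2 had 7 counts in HDAC8 3 alone, CSF3 was above the floor in EV 2 and HDAC8 3, and IL5 had no count. The floor, the level that a count of 0 still allows, was 3 counts, or 2.57 to 3.27 normalized counts by library.

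The chemokines were mostly silent. Of 24 CC chemokines 18 had no count in any library, CCL2 and CCL5 among them, which attract monocytes and T cells. The one that was called was CCL28 (ENSG00000151882, chromosome 5, 43376645 to 43412391, minus strand), a mucosal chemokine that binds CCR10 and CCR3. It had 156, 247 and 279.8 normalized counts in EV and 443, 722 and 637 in HDAC8, so the lowest HDAC8 library was above the highest EV library. The means were 228 ± 64.1 and 601 ± 143 (SD, n = 3), a 2.63-fold difference (95% interval 1.65 to 4.22, log2 fold change 1.40, SE 0.35, adjusted p = 0.00101 by DESeq2), and the call remained under each of the 14 alternatives. CCR10 had 133, 204 and 144 against 281, 141 and 259 and was not called (log2 fold change 0.50, adjusted p = 0.594), and CCR3 had no count. CCL17 and CCL20 were the other CC chemokines with an adjusted p, at mean normalized counts of 15.6 and 12.8, and neither was called.

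The membrane-anchored chemokines CX3CL1 and CXCL16 were the most abundant of their class, and neither was called. CX3CL1, which can tether leukocytes that carry CX3CR1, had 1419, 2083 and 1528 normalized counts in EV and 2030.0, 1787 and 2249.8 in HDAC8 (log2 fold change 0.27, 95% interval -0.13 to 0.67, adjusted p = 0.484). CXCL16 had 634, 964 and 781 against 446, 690.3 and 886 (log2 fold change -0.24, 95% interval -0.82 to 0.35, adjusted p = 0.749). The groups overlapped for both. Of the receptors, CX3CR1 had no count, and CXCR6, which binds CXCL16, had 243, 207 and 243 against 121, 92.2 and 122, groups that did not overlap, with a log2 fold change of -1.05 that missed the threshold (adjusted p = 0.0935).

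The neutrophil-attracting CXC chemokines with an ELR motif, targets of NF-kappaB that melanoma cells often secrete, were near the floor. CXCL8 had 9.44, 13.1 and 41.4 normalized counts in EV and 4.28, 0 and 7.62 in HDAC8. Every EV library lay above every HDAC8 library, but the log2 fold change of -2.43 had a 95% interval from -5.77 to 0.92 (adjusted p = 0.436). CXCL1 had 9 counts and CXCL2 5 counts, both in EV 2 alone, CXCL3 had 14 in HDAC8 2 alone, and CXCL5 and CXCL6 had none. CXCL9, CXCL10 and CXCL11, the chemokines that interferon induces, had no count in any library. The 10 members of the CXC cluster on chromosome 4 (73740519 to 77611834) thus held 1 with an adjusted p and none called, and 13 of the 14 members of the CC cluster on chromosome 17 (34255274 to 36105621) had no count. CCL8 was the exception in that CC cluster, with 28 counts in EV 3 alone.

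IL10 (ENSG00000136634, chromosome 1, 206767602 to 206774541, minus strand), an anti-inflammatory cytokine that melanoma cells are known to make, was the only member called lower. It had normalized counts of 564, 598 and 749 in EV and 239, 224 and 359 in HDAC8. All HDAC8 libraries were under all EV libraries. The means were 637 ± 98.3 and 274 ± 74.0 (SD, n = 3), 2.32-fold lower in HDAC8 (95% interval 1.51 to 3.56, log2 fold change -1.22, SE 0.31, adjusted p = 0.00186 by DESeq2), but without EV 3 the adjusted p was 0.0546 and the call was lost. Of its receptor, IL10RA had no count, and IL10RB had a log2 fold change of -0.13 (adjusted p = 0.865).

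The genes beside IL10 belong to the same family. IL19 overlaps IL10 on the opposite strand in GENCODE, and it had 0, 7.47 and 0 normalized counts in EV and 67.6, 7.17 and 16.3 in HDAC8, so that HDAC8 1 alone stood far above. It was not called (log2 fold change 3.60, adjusted p = 0.194), but it was without EV 2 (adjusted p = 0.0192). IL24 had 0, 11.2 and 41.4 against 42.8, 8.19 and 28.3 (adjusted p = 0.902), and IL20 had no count. Whether the counting used strand is not stated in the sources used here, so reads of IL10 and IL19 in the shared stretch could not be told apart.

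IL32, an interleukin with no close relatives that lymphoid and epithelial cells make, was without counts in the EV libraries and had 39, 11 and 23 counts in the HDAC8 libraries, or 33.3, 11.3 and 25.0 normalized counts. It was the only member above the floor in all libraries of one group and in none of the other. Against the floor this is at least 7.82-fold higher (ENSG00000008517, chromosome 16, 3065297 to 3082192, plus strand, DESeq2 adjusted p = 0.0122). At these low counts the call was not stable, since it was lost without HDAC8 1 (adjusted p = 0.0946), without HDAC8 3 (adjusted p = 0.0980) and with edgeR (adjusted p = 0.0730). IL32 is made by T cells, and the T cell marker CD3E had 0 in all EV libraries and 78.7, 91.1 and 50.1 normalized counts in HDAC8. Among 17 markers of other cell types, 4 (MS4A1, CDH5, DCN and EPCAM) had no count, the leukocyte marker PTPRC was at 0 except for 2.57 in HDAC8 1, and the markers summed to 5153 to 5280 normalized counts in EV and 5523 to 5832 in HDAC8. CD3E and PDGFRA were the 2 called higher, the latter a call lost in 8 of the 14 alternatives, with edgeR (adjusted p = 0.0597), limma-voom, a replicate block and each library left out but HDAC8 2 (adjusted p from 0.0536 to 0.233). The part of other cells in the IL32 result was not tested. In bulk libraries, fewer cells of a type and less RNA per cell cannot be told apart.

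IL16, a precursor whose processed form attracts CD4+ cells, was abundant and was not called. It had 6908, 6781 and 6802 normalized counts in EV and 7302, 5622 and 5778 in HDAC8 (log2 fold change -0.13, 95% interval -0.42 to 0.16, adjusted p = 0.700). The EV libraries lay within the range of the HDAC8 libraries.

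IL12A, the p35 subunit shared by interleukin 12 and interleukin 35, was close to the threshold. It had 0, 6.54 and 1.97 normalized counts in EV and 28.2, 49.2 and 35.9 in HDAC8. The groups did not overlap, and the log2 fold change was 3.72 (SE 1.41, adjusted p = 0.0597). It was called without EV 2 (adjusted p = 0.0331) and with no filter on low counts (adjusted p = 0.0497). Its partner IL12B had 3 counts in HDAC8 1 and none elsewhere, and IL23A, the partner of IL12B in interleukin 23, had 11 counts in each of EV 2 and EV 3 and none elsewhere.

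The IL-1 family members IL1A and IL1B, alarm signals that induce many other cytokines, varied widely within groups. IL1A had 24.1, 42.0 and 53.2 normalized counts in EV and 56.4, 0 and 13.1 in HDAC8, and IL1B had 82.8, 22.4 and 34.5 against 39.3, 0 and 53.4. HDAC8 2 lacked both, and neither was called (adjusted p = 0.832 and 0.874). IL18 was above the floor in HDAC8 1 alone, and IL33 in EV 2 and HDAC8 1. IL17D, the one member of the IL-17 family with an adjusted p, had 53.5, 65.4 and 108 against 68.4, 93.2 and 53.4 (adjusted p = 0.975).

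In the TNF superfamily none was called by DESeq2, edgeR or limma-voom or had an unadjusted p under 0.05, and TNF itself and TNFSF10, which encodes the death ligand TRAIL, had no count. TNFSF9, the ligand of the T cell costimulator 4-1BB, had 780.2, 979.7 and 848 normalized counts in EV and 1079, 1058 and 1130.3 in HDAC8. The groups did not overlap, but the difference was small (log2 fold change 0.32, 95% interval -0.09 to 0.74, adjusted p = 0.384). TNFSF4, which encodes OX40 ligand, had 155, 87.8 and 133 against 63.3, 115 and 110.0, and TNFSF13, which encodes APRIL, had 86.0, 72.8 and 37.4 against 128, 36.9 and 31.6 (adjusted p = 0.793 and 0.998). TNFSF12 had 15 and 11 counts in HDAC8 2 and HDAC8 3 and none in the other libraries. TNFSF15 had 41 counts and TNFSF11 8 counts in HDAC8 1 alone.

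**Figure D4:**
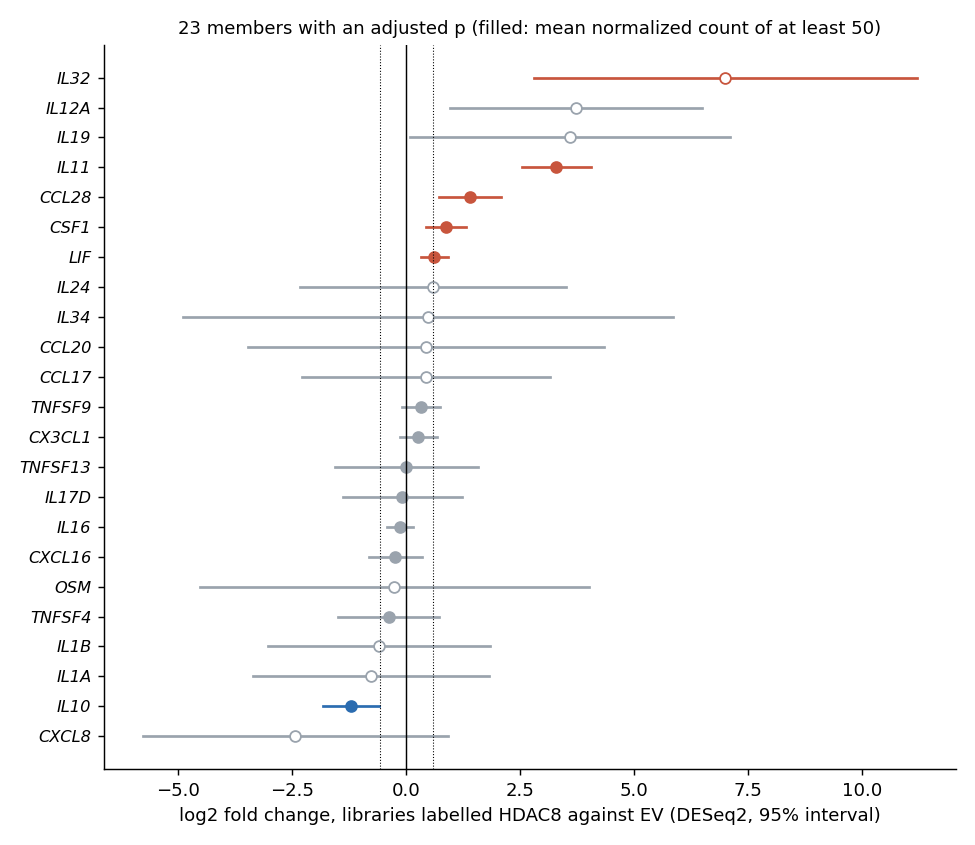
DESeq2 log2 fold change of the HDAC8 libraries against EV with its 95% interval for the 23 members with an adjusted p, filled where the member averaged at least 50 normalized counts, with dotted lines at -0.58 and 0.58. The called members are red (higher) or blue (lower), and the open points have wide intervals. These reach to both sides of 0 in members such as IL34 and CCL20, but lie above 0 for IL32, IL12A and IL19.

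Counts were at or near 0 in many members, and presence in a single library was common. Of the 93 members, 13 were above the floor in all 6 libraries, 27 in at least 1 library of both groups, 11 in EV only and 10 in HDAC8 only. Of the 11 seen in EV only, 9 were in 1 library and 2 (IL13 and IL23A) in 2 libraries. The 9 were CCL8, CCL27, CXCL1, CXCL2, CXCL14, IL3, IL17B, IL25 and IL27, with at most 28 counts. Of the 10 seen in HDAC8 only, 7 were in 1 library (CXCL3, IL18, IL17C, TNFSF11, TNFSF15, TNFSF18 and CSF2), 2 (CCL22 and TNFSF12) in 2 libraries, and IL32 in 3. The number of members above the floor ran from 19 in EV 1 to 32 in EV 2, and in HDAC8 from 24 to 29, so it overlapped between the groups. Over the 41 members tested, 9 had groups that did not overlap, 7 higher and 2 lower in HDAC8, or 22.0%, where 24.0% of all 26162 genes tested had such groups, 11.3% higher and 12.7% lower. The common gamma chain cytokines, which drive lymphocytes, were grouped with IL13, which does not use that chain. Of these 7 members 5 had no count, among them IL2, IL4 and IL15.

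The called members had 12 nearest protein-coding neighbours, of which only 6 had an adjusted p. Of these 6, 1 was called, where 13.9% of all protein-coding genes with an adjusted p were called. So few neighbours cannot be read against that share. The called neighbour was MMP25 beside IL32 at a distance of 4571 bases, with 51.4, 82.2 and 41.4 normalized counts in EV and 150, 168 and 193 in HDAC8 (log2 fold change 1.54, adjusted p = 0.0407). OSM, the neighbour of LIF at 16070 bases, stood at under 20 normalized counts in each library. MAPKAPK2 beside IL10 had a log2 fold change of -0.01 (adjusted p = 0.980).

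Genes that receive or transmit these signals were counted in lists written from general knowledge. Among all genes with an adjusted p 11.0% were called, and among the protein-coding ones 13.9%. Of 33 cytokine receptor genes with an adjusted p, 3 were higher in HDAC8 and 2 lower, or 15.2%. IL7R, the receptor of interleukin 7, rose from 89.8 ± 15.2 to 438 ± 17.5 normalized counts (SD, n = 3, log2 fold change 2.29, adjusted p = 1.99e-08), while IL7 itself was above the floor in EV 1 and HDAC8 3 only. IL17RA, a receptor of the IL-17 family, had a log2 fold change of 0.66 (adjusted p = 1.61e-04), and OSMR was the other one called higher. IL21R fell from 507 ± 157 to 44.7 ± 3.47 (log2 fold change -3.50, adjusted p = 3.15e-16), and CSF2RA fell from 1632 ± 123 to 918 ± 65.3 (log2 fold change -0.83, adjusted p = 3.59e-04), with no count of their ligand IL21 and 7 counts in all of CSF2. The call of IL17RA was lost without EV 1, at a log2 fold change of 0.578. Of 7 chemokine receptor genes with an adjusted p, none was called by DESeq2, edgeR or limma-voom, and CXCR6 was the 1 gene with an unadjusted p under 0.05.

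Of 17 TNF receptor superfamily genes with an adjusted p, 4 were higher and 1 lower, or 29.4%, against 13.9% of all protein-coding genes. TNFRSF11B, which encodes the decoy receptor osteoprotegerin, had 320, 280 and 192 normalized counts in EV and 1460, 1267 and 1616 in HDAC8, a log2 fold change of 2.46 (adjusted p = 4.30e-19). TNFRSF21 and TNFRSF12A had log2 fold changes of 0.72 (adjusted p = 5.08e-05) and 0.65 (adjusted p = 0.0112), and TNFRSF8 was called at a mean under 50, though not by limma-voom. FAS, the death receptor, had 350.2, 199.9 and 206 against 87.2, 60.4 and 89.3 (log2 fold change -1.67, adjusted p = 0.00616), and its call was lost without EV 1 (adjusted p = 0.164). TNFRSF12A was no longer called without EV 1 (adjusted p = 0.0609), EV 3 (0.140) or HDAC8 3 (0.0565), nor without HDAC8 1, where its log2 fold change was 0.56.

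In the NF-kappaB list, 3 of 29 genes were higher (CYLD, TRAF1 and IRAK2) and 1 was lower (NFKBIZ). That is 13.8%, near the 13.9% of all protein-coding genes. IRAK2, at a mean under 50, was called by neither edgeR nor limma-voom. CYLD, a deubiquitinase that restrains the pathway, had a log2 fold change of 1.37 (adjusted p = 5.51e-09), TRAF1 one of 1.09 (adjusted p = 0.0160) and NFKBIZ, a nuclear cofactor needed for a subset of its targets, one of -1.14 (adjusted p = 2.84e-09). The call of TRAF1 was lost with a replicate block (adjusted p = 0.0523) and without EV 1 (0.133), EV 3 (0.0676) or HDAC8 1 (0.121). Of 24 JAK, STAT and SOCS genes, none was higher and 2 were lower, or 8.33%. These were JAK2 (log2 fold change -0.59, adjusted p = 0.0428) and PIAS3 (log2 fold change -0.64, adjusted p = 0.0307), calls that were lost in 9 and 6 of the 14 alternatives. Without any 1 of the 6 libraries JAK2 was not called (adjusted p from 0.0569 to 0.341), and PIAS3 was not called without any 1 EV library or HDAC8 2 (adjusted p from 0.0938 to 0.151). Of 14 genes that act on AU-rich mRNA, to which many cytokine messages belong, none was higher and 2 were lower, or 14.3%. These were TIAL1 (log2 fold change -0.79, adjusted p = 1.78e-04) and HNRNPD (log2 fold change -0.58, adjusted p = 0.00781), the latter called in 10 of the 14 alternatives. HNRNPD was not called without EV 1, EV 3 or HDAC8 1, at log2 fold changes of -0.49, -0.56 and -0.47. ZFP36, which degrades such messages, had a log2 fold change of 0.46 (adjusted p = 0.290).

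**Figure D5:**
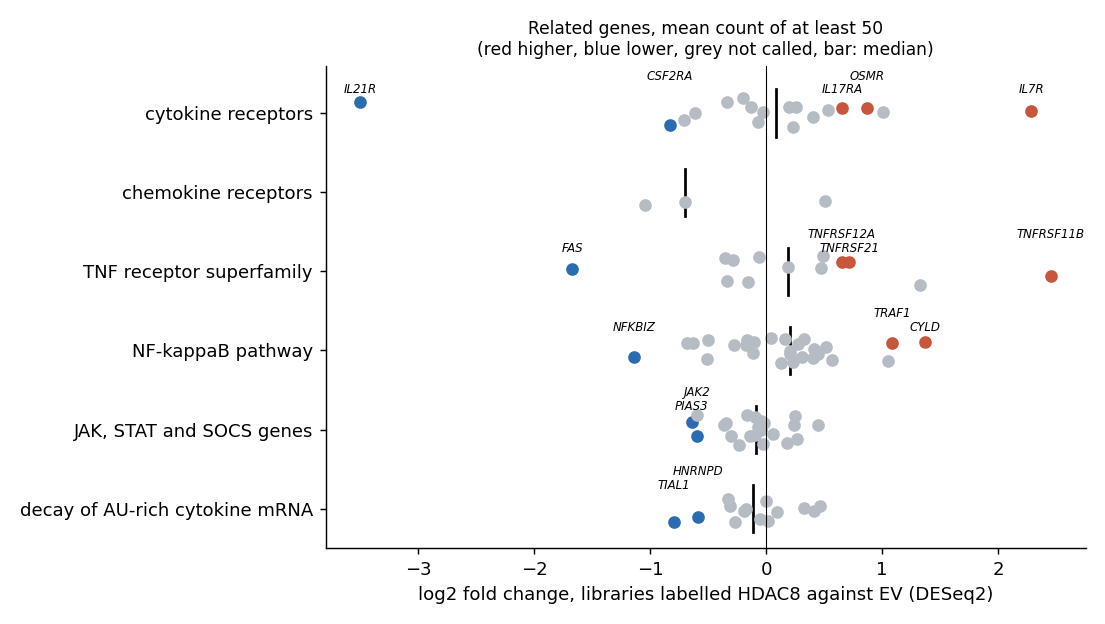
DESeq2 log2 fold change of HDAC8 against EV for genes averaging at least 50 normalized counts in 6 related lists, with 1 point for each gene (red higher, blue lower, grey not called), vertical scatter without meaning and the list's median as a bar. IL21R lies farthest to the left at -3.50, and TNFRSF11B and IL7R farthest to the right at 2.46 and 2.29.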

How the data were processed

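Per the labels and the study's methods, the authors used Trimmomatic on paired reads and STAR against the transcriptome, and deposited RSEM expected counts per gene, not scaled between libraries. Genome build, annotation and strand setting are not given in the sources used here, so overlapping, antisense and near-identical genes are uncertain. Expected counts were rounded to whole numbers. Positions and exon lengths came from GENCODE 44 (GRCh38), which held 56558 of 60504 identifiers and all 93 members.

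HDAC8 was compared with EV (3 libraries each) over 26162 genes (10 or more counts in all) in DESeq2 1.42.0 (R 4.3.3), by its Wald test, two-sided, without covariates and with Benjamini-Hochberg adjustment, and 5141 of them received no adjusted p. Size factors ran from 0.918 to 1.17. Nothing says that libraries came from separate cultures, so p-values measure the spread between these libraries, which may be technical. Between libraries of a group, chi-square divided by its degrees of freedom was 27.6 to 168, above sampling noise. The pairs with HDAC8 1 stood at 168 and 112, HDAC8 2 and HDAC8 3 at 27.6, and the EV pairs at 42.0 to 51.6. Intervals are at 95%. The floor of 3 counts covers counting error only.

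Members and lists were chosen with earlier results of these data known, and 2 genes of the lists are not reported here. Named were all called members, the 6 highest per kb, CXCL1, CXCL2, CXCL8, CXCL10, CCL2, CCL5, IL1A, IL1B, IL6, LIF, CSF1, TNF and TNFSF10, members above the floor in 1 group only, HDAC8, and in each list up to 4 called genes per direction with a mean of at least 50. Other genes were named after their values were seen, as receptors, neighbours or relatives of members. Alternatives were edgeR 4.0.16, limma 3.58.1 (voom), other scalings and filters, a replicate block, no fold minimum, each library left out, and, added after the data had been seen, a fit without mitochondrially encoded genes. The fits were tested on simulated data.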

Additional observations from a re-analysis of the deposited data

How the results depend on the processing

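Of the 23 members with an adjusted p, 11 kept their direction and their side of the threshold under every alternative run, 3 lost a call (LIF, IL32 and IL10), 2 gained one (IL12A and IL19) and 7 changed direction, none of these 7 called. With a library left out, 3 to 7 members were higher and 0 to 1 lower, and 746 to 1378 of all genes were lower. The 3 came without HDAC8 1, and the 0 for members and the 746 came without EV 3. The cause was not tested. Leave-one-out log2 fold changes ran from -0.16 to 0.89 for CCL17, -0.15 to 6.30 for CCL20, -1.24 to 0.12 for IL1B, -0.31 to 0.26 for IL17D, -0.94 to 0.34 for TNFSF13, -0.10 to 1.07 for IL34 and -1.69 to 0.33 for OSM. With limma-voom TNFSF13 was at -0.12 and IL34 at -0.83. Scaling by total counts or upper quartiles shifted the median gene by 0.0422 and 0.00506 on the log2 scale.

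No pairing of the libraries by replicate number was seen, as deviations from the group means correlated at -0.0273, -0.0663 and 0.0399 over 14451 genes. With a replicate block, 5 members were higher and 1 lower, and TNFSF13 was at -0.21. Depth limits the members near the floor: 18 tested members have no adjusted p, and a count of 0 still allows a level of up to 2.57 to 3.27 normalized counts, by library.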

Other observations

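Cytokines whose symbols lie outside the naming rule were read from a list written from general knowledge, of which 39 were in the table. Of the 13 with an adjusted p, none was called higher and 1, or 7.69%, was called lower, against 11.0% of all genes called in either direction. The gene called lower was GDF15, a stress-induced member of the TGF-beta superfamily, with normalized counts of 27543, 39517 and 28623 in EV and 8873, 9403 and 10229.6 in HDAC8 (log2 fold change -1.75, SE 0.16, DESeq2 adjusted p = 1.08e-26). Every HDAC8 library lay far under every EV library. MIF, macrophage migration inhibitory factor, had 10627, 14044 and 9292 against 8989, 9928 and 9596 and was not called (log2 fold change -0.25, 95% interval -0.57 to 0.06, adjusted p = 0.372).

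Of the 5 longer symbols, none was called. The readthrough gene TNFSF12-TNFSF13 had 62.5 normalized counts in HDAC8 2 and 0 in each other library (adjusted p = 0.109), and it shares exons with TNFSF13 on the same strand. TNFSF13B, which encodes BAFF, had 9.44, 5.60 and 18.7 in EV and 18.0, 0 and 0 in HDAC8 (adjusted p = 0.901). CCL3L1 had 18.8 in HDAC8 1 alone, and CCL4L2 and CCL15-CCL14 had no count.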
